A study of Mus musculus with 4 samples.

Results

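The set described here holds 9 of the 37008 genes and transcripts on the array, read by 15 of its 56605 probes. They are the acute phase and innate recognition genes Lcn2, Saa3, Hp and Ptx3, the complement genes Cfb and C3, the histamine-forming enzyme gene Hdc, and the formyl peptide receptor genes Fpr1 and Fpr2. They were selected on their response to lipopolysaccharide (LPS) as measured on these same 4 arrays, so each LPS response below is a description and carries no test. Not all 9 are higher with LPS: Hp was lower, and Ptx3 was not above background on any array.

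The arrays held RNA of RAW264.7, a mouse macrophage-like cell line, in 4 groups of 1 array: Mfp2-/- cells stimulated with LPS, Mfp2-/- cells without LPS, wild-type ("naive") cells stimulated with LPS, and wild-type cells without LPS. Mfp2 is the product of Hsd17b4, a peroxisomal enzyme that shortens very long and branched fatty acids, and the Mfp2-/- cells are called knockout here. The LPS dose and duration, the way the gene was disrupted and whether the knockout is 1 clone do not appear in the sources used here. With 1 array per group nothing has a replicate check, no p-value is given, and the number of arrays limits the precision. The groups also differ in their position on the 1 slide, which cannot be told apart from genotype and treatment.

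LPS is a cell wall component of Gram-negative bacteria that macrophages sense through Toll-like receptor 4. The acute phase response is the rapid change in plasma and leukocyte proteins during infection, made largely by the liver but in part by macrophages themselves. Complement is a cascade of plasma proteins centred on C3, and factor B (Cfb) forms the alternative pathway convertase that cleaves C3. Formyl peptide receptors are G protein-coupled receptors with which phagocytes detect bacterial peptides and damaged mitochondria.

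Signals are the scanner's processed signals on a linear scale. Differences are log2 values after each array was scaled to its own 75th percentile, and the ± value is the SD that the scanner's error model gives the difference, which covers measurement within the arrays and not the spread between cultures. Calls of higher and lower need a difference of 2-fold or more. Where 1 of the arrays compared was not well above background, its signal was replaced by the dimmest signal that passed on that array (between 19.7 and 22.4) if that was larger, which makes the fold a lower bound ("at least").

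Between 47.4% and 49.7% of spots were well above background on an array, and 0 were saturated. Hsd17b4 had a signal of 1217 in knockout cells with LPS against 2915 in wild-type cells with LPS, and of 2545 in untreated knockout cells against 4482 in untreated wild-type cells, differences of -1.17 and -0.86, and was detected on all 4 arrays. All 9 macrophage markers were well above background on all 4 arrays. Of 6 hepatocyte markers 0 to 2 were above background, with Alb on none of the arrays, of 7 mast cell and basophil markers 0 or 1 (Tpsb2), of 7 neutrophil markers 2 or 3 (S100a8, Elane and, with LPS, Camp), and of 5 fibroblast markers 0 or 1 (Dcn).

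Lcn2 encodes lipocalin 2, which withholds iron from bacteria by binding their siderophores. Its signal in knockout cells was 41409 with LPS and 40.7 untreated, and in wild-type cells 14810 with LPS and 32.3 untreated. Both LPS arrays stood far above both untreated arrays. LPS raised it by 10.28 ± 0.25 in knockout cells (1239.7-fold) and by 8.99 ± 0.29 in wild-type cells (509-fold). Among genes well above background on both arrays compared, these were rank 2 of 15961 and rank 1 of 16087. Such ranks leave out genes that were dark without LPS. The cytokine gene Il1b, 1 of these, was at least 3806-fold higher in knockout cells and at least 3658-fold higher in wild-type cells. With normexp background correction, another treatment of dim signals, the responses of Lcn2 were 8.87 in knockout and 7.40 in wild-type cells. The wild-type response of Hdc (7.50) was then above that of Lcn2. With LPS, knockout cells had 2.97-fold more than wild-type cells (1.57 ± 0.20), while untreated cells differed by 0.29 ± 0.33, less than 1 SD of the error model. A second probe, shown here because its 60 bases span 245 bases of the genome and so cross an intron, was below background on both untreated arrays and gave 1.72 ± 0.20 for knockout over wild type with LPS. It maps to chr2:32241037-32241281, minus strand, in the mm9 coordinates of the files.
Lcn2 probe A_51_P510156: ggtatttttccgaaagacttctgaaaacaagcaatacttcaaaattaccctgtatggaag

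Saa3 encodes serum amyloid A3, an acute phase apolipoprotein that macrophages make outside the liver. Its signal in knockout cells was 109256 with LPS and 302.7 untreated, and in wild-type cells 49412 with LPS and 304.1 untreated. The untreated arrays were nearly equal, with a difference of -0.05 ± 0.21 between knockout and wild type, and the arrays parted with LPS. LPS raised the gene by 8.78 ± 0.21 in knockout cells (439.8-fold) and by 7.49 ± 0.21 in wild-type cells (180.3-fold). With LPS, knockout cells had 2.35-fold more than wild-type cells (1.23 ± 0.20). The 1 probe lies at chr7:53967559-53967618 (mm9, minus strand) and is shown because the serum amyloid A genes resemble each other; whether it reads Saa3 alone was not tested.
Saa3 probe A_66_P106131: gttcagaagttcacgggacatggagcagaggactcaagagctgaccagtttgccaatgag

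Hp and Ptx3 did not follow Lcn2 and Saa3. Hp, which encodes the haemoglobin-binding plasma protein haptoglobin, had a signal of 9.001 with LPS and 66.6 untreated in knockout cells, and of 20.1 with LPS and 72.5 untreated in wild-type cells. It was well above background on both untreated arrays and on neither LPS array, which makes it at least 2.77-fold lower with LPS in knockout cells and at least 2.97-fold lower in wild-type cells. The untreated genotypes differed by -0.17 ± 0.24. With normexp background correction the LPS response was -0.71 in knockout and -0.63 in wild-type cells and passed the 2-fold rule in neither. Ptx3, the long pentraxin that opsonises microbes, had signals between 4.29 and 4.999 on the 4 arrays and no call in any comparison.

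Cfb, the factor B gene, was higher in untreated knockout than in untreated wild-type cells. Its signal was 4331 with LPS and 131 untreated in knockout cells, and 3136 with LPS and 28.0 untreated in wild-type cells. Untreated knockout cells had 4.52-fold more than untreated wild-type cells (2.18 ± 0.32), rank 34 from the top of 16407 genes measured on both arrays. With LPS the difference was 0.55 ± 0.20, below 2-fold. With normexp the untreated difference was 1.12. The LPS increase was 5.33 ± 0.21 in knockout cells (40.3-fold) and 6.96 ± 0.32 in wild-type cells (124-fold), or 4.72 in knockout and 5.28 in wild-type cells with normexp. The second Cfb probe had signals of 692 with LPS and 24.8 untreated in knockout cells, and of 505 with LPS and 5.76 untreated in wild-type cells. Its untreated wild-type signal was not above background, so the untreated difference at that probe is a bound of at least 1.07-fold. The Cfb probes are shown because the untreated difference rests on the first of them, which lies at chr17:34993502-34993858 and spans 357 bases of the genome; the second lies at chr17:34994617-34994676 (both mm9, minus strand).
Cfb probe A_51_P413866: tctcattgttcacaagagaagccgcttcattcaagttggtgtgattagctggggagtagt
Cfb probe A_66_P138911: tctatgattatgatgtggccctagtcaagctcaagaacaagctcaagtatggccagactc

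C3, the central complement component, was well above background on every array and had the smallest LPS increase of the members that rose. Its signal was 2785 with LPS and 685 untreated in knockout cells, and 2170.4 with LPS and 749.9 untreated in wild-type cells. It rose by 2.31 ± 0.20 in knockout cells (4.95-fold) and by 1.68 ± 0.20 in wild-type cells (3.21-fold). The genotypes differed by 0.45 ± 0.20 with LPS and by -0.18 ± 0.20 untreated, both below 2-fold. The second C3 probe gave LPS increases of 2.14 ± 0.21 in knockout cells and 1.403 ± 0.21 in wild-type cells.

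Hdc encodes histidine decarboxylase, the only enzyme that forms histamine in mammals. Its signal was 32058 with LPS and 234 untreated in knockout cells, and 19146 with LPS and 55.9 untreated in wild-type cells. Like Cfb, it was higher in untreated knockout than in untreated wild-type cells, by 4.06-fold (2.02 ± 0.24), and by 0.83 ± 0.20 with LPS, which is below 2-fold. LPS raised it by 7.38 ± 0.21 in knockout cells (167-fold) and by 8.57 ± 0.23 in wild-type cells (380.3-fold), or 7.02 in knockout and 7.50 in wild-type cells with normexp and 7.0004 in knockout and 6.65 in wild-type cells with the mean of its 3 probes. The other 2 probes of Hdc were below background on both untreated arrays. They therefore do not measure the untreated difference, and with the mean of the 3 probes it was 0.48 in place of 2.02. With LPS the other probes gave 0.92 ± 0.21 and 0.73 ± 0.21 for knockout over wild type, close to the 0.83 of the first. Mast cells and basophils are the best known source of Hdc; of 7 of their markers, Kit, Cpa3, Tpsab1, Mcpt4, Fcer1a and Mcpt8 were above background on 0 arrays and Tpsb2 on 3. Tpsb2, a mast cell tryptase gene, had a signal of 26.0 with LPS and 12.7 untreated in knockout cells, and of 54.7 with LPS and 29.0 untreated in wild-type cells. The summed signal of the 7 markers, as a multiple of the array's 75th percentile, was 0.173 with LPS and 0.118 untreated in knockout cells, and 0.299 with LPS and 0.190 untreated in wild-type cells. Their part in the Hdc result was not tested.

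Fpr1 and Fpr2, the receptors for bacterial and host formyl peptides, were dark or nearly so without LPS and bright with it. Fpr1 had a signal of 830.0 with LPS and 4.97 untreated in knockout cells, and of 467 with LPS and 5.18 untreated in wild-type cells. That is at least 50.05-fold higher with LPS in knockout cells and at least 23.2-fold higher in wild-type cells. Fpr2 had a signal of 4946 with LPS and 25.9 untreated in knockout cells, and of 2557 with LPS and 20.2 untreated in wild-type cells. It rose 233-fold in knockout cells (7.86 ± 0.31) and at least 127-fold in wild-type cells, where the untreated array was not above background. With normexp the responses of Fpr1 were below these bounds, at 3.35 in knockout and 2.99 in wild-type cells. Those of Fpr2 were 5.99 in knockout cells, against the measured 7.86, and 5.15 in wild-type cells, below the bound there. With LPS, knockout cells exceeded wild-type cells by 1.04 ± 0.20 for Fpr2 and by 0.92 ± 0.20 for Fpr1. The Fpr2 difference sits at the 2-fold line: it was 0.99 with spike-in centring, 0.98 with quantile normalization and 0.97 in the deposited series table, and the Fpr1 difference passed the line only with median centring (1.09). A second Fpr2 probe gave 1.13 ± 0.20.

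**Figure D1:**
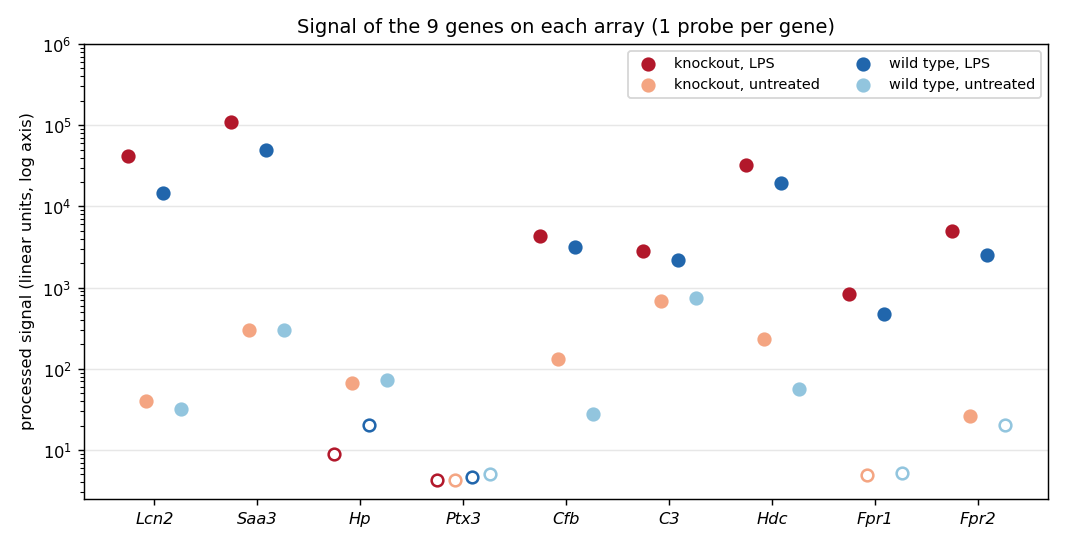
Processed signal (linear units on a log axis) of the probe used for each of the 9 genes on the 4 arrays; filled points were well above background and open points were not. Lcn2, Saa3, Hdc, Cfb, C3, Fpr1 and Fpr2 are brighter on both LPS arrays, Hp is dimmer there, and Ptx3 stays between 4.29 and 4.999.

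**Figure D2:**
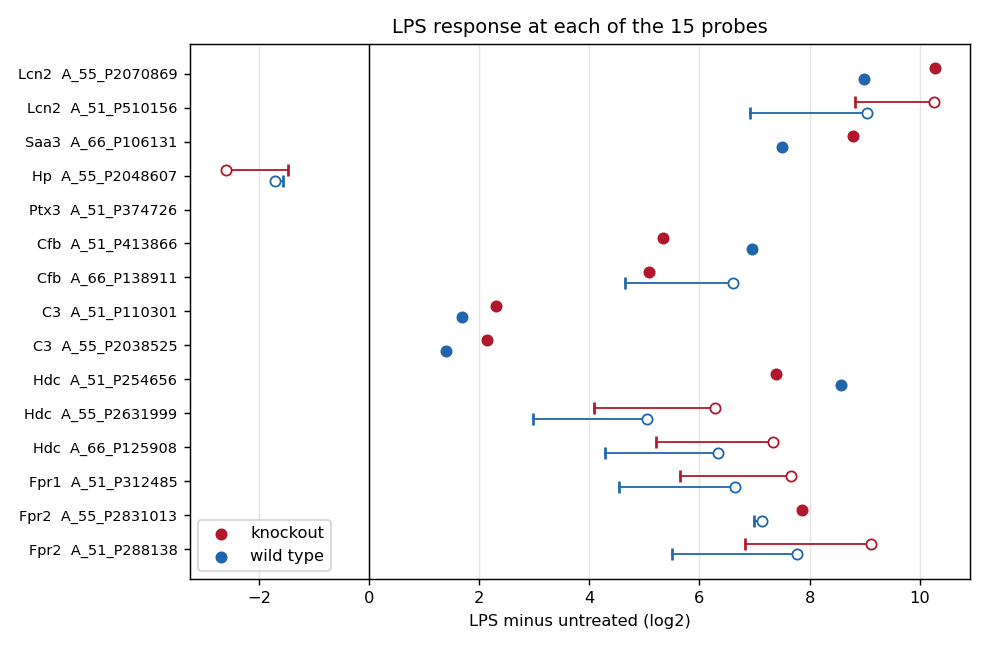
LPS minus untreated (log2, scaled) at each of the 15 probes in knockout and wild-type cells. Filled points were measured on both arrays; open points were above background on 1 of them, with a line to the bound, and Ptx3 has no point because it was below background on all 4 arrays.

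In the LPS responses, 7 of the 8 members compared were higher and 1 was lower in either genotype. Of all genes, 11.0% were higher and 12.5% lower with LPS in knockout cells, and 9.71% were higher and 8.58% lower in wild-type cells, and since the members were chosen on this contrast nothing is read from the count. The member nearest above the 2-fold line was C3 in wild-type cells (1.68), and Ptx3, below background, lay outside it. The median over the 8 members was 7.53 in knockout cells and 7.04 in wild-type cells, against medians of -0.0071 and 0.0104 over all genes compared.

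**Figure D3:**
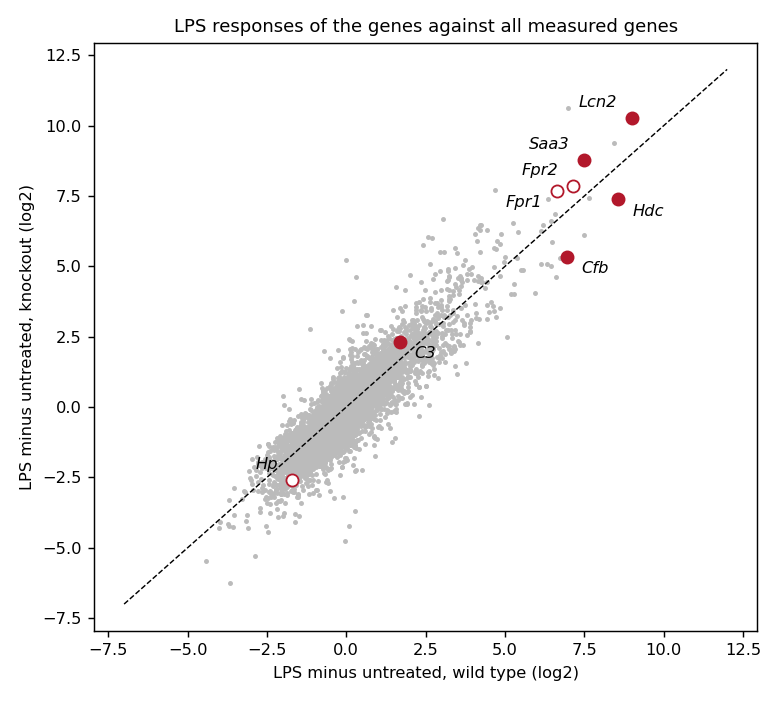
LPS minus untreated in knockout (vertical axis) against wild type (horizontal axis), both log2, for all genes above background on the 4 arrays (grey) and for 8 of the 9 members (red; open where at least 1 array was not above background). Lcn2 and Saa3 lie above the line of equal response, Cfb and Hdc below it.

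With LPS, the difference between genotypes had the same sign for all 7 members that were above background. Lcn2, Saa3 and Fpr2 were higher in knockout cells by the 2-fold rule, 3 of 7, and 0 of 7 were lower, where 1.86% of all genes were higher and 4.39% lower. The 7 differences lay between 0.45 and 1.57 with a median of 0.92, against a median of 0.05 over all genes. Lcn2 ranked 54 and Saa3 115 from the top of 16102 genes measured on both arrays. With median centring, which places 46.4% of the calls of all genes on the higher side in place of 29.7%, 4 members were higher, and with quantile normalization, spike-in centring or the deposited series values there were 2. With no filter on dim probes, 3 of 9 members were higher and 1 was lower. The lower member was Hp (-1.07), which was not well above background on either LPS array. These 2 arrays also enter the LPS responses on which the members were selected, and all values rest on 1 culture per genotype.

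Without LPS the members split. Cfb and Hdc were higher in knockout cells, 2 of the 7 compared, and 0 were lower, where 3.08% of all genes were higher and 3.9% lower. Lcn2, Saa3, C3, Hp and Fpr2 differed by between -0.18 and 0.31, and the median over the 7 was 0.29 against 0.06 over all genes. Fpr1 and Ptx3 were below background in both genotypes. The untreated arrays also enter the LPS responses on which the members were selected.

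In all, 5 members were above background on all 4 arrays and allow the LPS response of knockout minus that of wild type. It was 1.29 ± 0.29 for Saa3, 1.28 ± 0.39 for Lcn2 and 0.62 ± 0.29 for C3, and -1.62 ± 0.38 for Cfb and -1.19 ± 0.31 for Hdc. Lcn2 and Saa3 therefore passed the 2-fold rule upward and Cfb and Hdc downward, 2 each of 5, where 1.69% of all genes passed it upward and 2.91% downward (36.7% of the calls upward, or 51.6% with median centring). These differences use the same arrays as the LPS responses on which the members were selected, so nothing is read from the counts. For Cfb and Hdc the level with LPS was not lower in knockout cells, with differences of 0.55 and 0.83, below 2-fold. Their untreated differences at the probes used were larger, 2.18 and 2.02, and each rests on 1 probe of its gene. With normexp background correction the difference of the responses was -0.56 for Cfb and -0.48 for Hdc, below 2-fold, and their untreated differences were 1.12 and 1.34. With the mean of the 3 Hdc probes its sign turned (0.35).

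**Figure D4:**
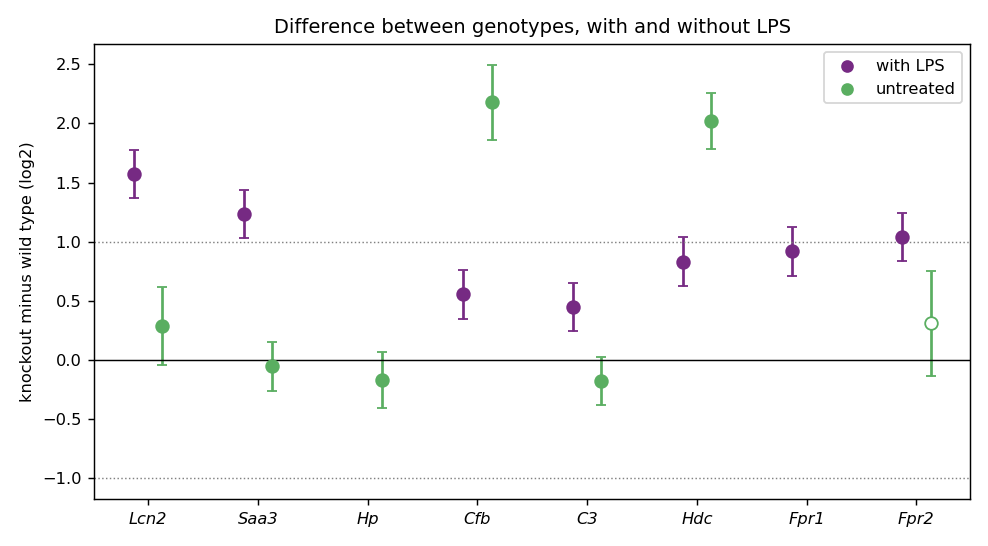
Knockout minus wild type (log2) with LPS and untreated for 8 members; bars are 1 SD of the scanner's error model, open points had 1 array above background, dotted lines mark 2-fold, and pairs with both arrays below background are left out. The 7 values with LPS all lie above 0, while of the untreated values only Cfb and Hdc pass 2-fold.

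The related genes were taken from lists, and those named are mostly the ones with the largest LPS or genotype differences of a list. The lists were chosen with earlier results of these data known. Their counts below stand against the shares of all genes: with LPS 11.0% higher and 12.5% lower in knockout cells and 9.71% higher and 8.58% lower in wild-type cells, and, between genotypes, 1.86% higher and 4.39% lower with LPS and 3.08% higher and 3.9% lower untreated. Of 22 acute phase genes, 8 were above background on some array. With LPS, 3 of 6 compared were higher and 1 lower in knockout cells (median 1.13), and 4 of 7 compared were higher and 1 lower in wild-type cells (median 1.25). Between genotypes, 2 of 6 compared were higher and 0 lower in knockout cells with LPS, and 2 of 6 compared were higher and 1 lower untreated. Saa1, a serum amyloid A gene, had a signal of 12089 with LPS and 157 untreated in knockout cells, and of 5195 with LPS and 150.2 untreated in wild-type cells. Like Saa3 it was nearly equal without LPS (0.01) and higher in knockout cells with LPS (1.31); whether its probe also reads Saa2, itself below background on its own probe, was not tested. Cp, the copper-carrying ferroxidase ceruloplasmin, was higher in knockout cells both with LPS (1.58) and untreated (2.61). Trf, the iron carrier transferrin, was 2.04 higher in untreated knockout than in untreated wild-type cells, and its LPS response was -2.08 in knockout cells and -0.91 in wild-type cells. Serpina3g, a serine protease inhibitor gene, was below background without LPS and rose at least 21.1-fold in knockout cells and at least 32.4-fold in wild-type cells. Serpina1a, a protease inhibitor gene of hepatocytes, was above background only on the untreated wild-type array, at a signal of 58.2. Its calls of lower, with LPS in wild-type cells and in untreated knockout cells, were lost with normexp.

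Among the 26 other complement genes listed, 4 of 15 compared were higher and 3 lower with LPS in knockout cells (median 0.64), and 4 of 16 compared were higher and 2 lower in wild-type cells (median 0.29). Between genotypes, 2 of 15 compared were higher and 2 lower in knockout cells with LPS, and 2 of 15 compared were higher and 1 lower untreated. C5ar1, the receptor for the C5a fragment, rose by 4.57 in knockout cells and by 3.62 in wild-type cells, and with LPS it was 1.17 higher in knockout cells. Serping1, the C1 inhibitor gene, was above background only in knockout cells with LPS, at a signal of 66.5, at least 3.21-fold above wild type. With normexp 0 of 15 complement genes compared were higher in knockout cells with LPS, so these calls of C5ar1 and Serping1 were lost. C1s1, a protease of the classical pathway, was above background only in wild-type cells, at 49.5 with LPS and 46.1 untreated. Its call of lower in untreated knockout cells was lost with normexp. C8g, a subunit of the terminal complex, was 1.61 higher in untreated knockout than in untreated wild-type cells, and at least 7.44-fold lower with LPS in knockout cells and at least 2.203-fold lower in wild-type cells.

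Of 10 genes of histamine handling, 4 were above background. With LPS, 2 of 4 compared were higher and 1 lower in knockout cells (median 0.94), and 1 of 4 compared was higher and 1 lower in wild-type cells (median -0.01, a value whose sign turned under several settings, up to 0.46 with the stricter filter). The histamine receptor gene Hrh4 rose by 3.203 in knockout cells and by 3.19 in wild-type cells. The vesicular amine transporter gene Slc18a2 differed by -0.19 in knockout cells and by -0.48 in wild-type cells, below 2-fold. Maoa, an amine oxidase gene, was at least 3.03-fold lower with LPS in knockout cells and at least 2.5-fold lower in wild-type cells. Both of these calls were lost with normexp. Aldh3a1, an aldehyde dehydrogenase gene, rose by 2.06 in knockout cells and differed by 0.46 in wild-type cells. Knockout against wild type, it was lower untreated (-1.41) and differed by 0.19 with LPS. It was the 1 of 4 compared that was lower untreated, a call lost with normexp, and 0 were higher. With LPS, 0 of 3 compared were higher or lower between genotypes. Hnmt, which inactivates histamine by methylation, was below background on all 4 arrays.

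The formyl receptor genes Fpr3, Fpr-rs3, Fpr-rs4 and Fpr-rs6 were below background on all 4 arrays. Of the 5 genes of the family, ligands and coupling compared, 1 was higher with LPS in knockout cells (median 0.44) and 0 in wild-type cells (median 0.37). That gene was Camp, the cathelicidin precursor, at least 2.25-fold higher, and the call was lost with normexp and with spike-in centring. Anxa1, a protein whose peptides bind formyl receptors, differed by 0.44 in knockout cells and by 0.64 in wild-type cells, Arrb2, an arrestin gene, by 0.68 and 0.14 in the same order, and the G protein subunit gene Gnai3 by 0.08 and 0.37.

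Of the genes for receptors and partners of the member proteins, 3 of 8 compared were higher and 2 lower with LPS in knockout cells (median -0.21, or 0.26 with no filter on dim probes), and 4 of 8 compared were higher and 0 lower in wild-type cells (median 0.80). Knockout against wild type, 1 of 8 compared was higher and 2 lower with LPS, and 2 of 8 compared were higher and 2 lower untreated. Mmp9, the gelatinase that lipocalin 2 binds, rose by 6.29 in knockout cells and by 4.45 in wild-type cells, and differed by -2.69 between untreated knockout and wild-type cells. The IgG receptor gene Fcgr2b rose by 3.77 in knockout cells and by 3.25 in wild-type cells. Fcgr3 differed with LPS by -3.21 in knockout cells and by -0.11 in wild-type cells, and Fcgr1 by 0.36 in knockout cells and by 2.003 in wild-type cells. Knockout against wild type, Fcgr1 was 1.61 higher untreated and differed by -0.03 with LPS. The same differences of Fcgr3 were 0.83 untreated and -2.27 with LPS. Cd36, a scavenger receptor gene, was lower in knockout cells with LPS (-3.54) and untreated (-3.35).

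Of the transcription factors known to act on acute phase genes, 10 of 16 compared were higher and 1 lower with LPS in knockout cells (median 1.64). In wild-type cells 8 of 15 compared were higher and 2 lower with LPS (median 1.03). There 7 of 15 were higher with normexp, quantile normalization, spike-in centring, the mean of all probes and the deposited series values. Knockout against wild type, 1 of 15 compared was higher and 0 lower with LPS, and 1 of 16 compared was higher and 2 lower untreated. Nfkbiz, an inducible partner of NF-kB that Lcn2 induction requires in mouse cells, rose by 4.46 in knockout cells and by 4.29 in wild-type cells. It was the only factor called higher in knockout cells, with LPS (1.199) and untreated (1.03). Both of these calls were lost with the mean of all probes, and the untreated call also with normexp. The part of Nfkbiz in the Lcn2 difference was not tested. Cebpd, a C/EBP factor of the acute phase response, rose by 2.97 in knockout cells and by 2.498 in wild-type cells. Nfkb2, an NF-kB subunit gene, rose by 2.92 in knockout cells and by 1.99 in wild-type cells. Fos, an AP-1 subunit gene, was lower in untreated knockout than in untreated wild-type cells (-1.82).

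For the inducing cytokines and their receptors, 7 of 10 compared were higher and 1 lower with LPS in knockout cells (median 5.89, or 5.38 with bounded genes at their bound), and 7 of 10 compared were higher and 1 lower in wild-type cells (median 4.86, or 3.98). Knockout against wild type, 2 of 10 compared were higher and 0 lower with LPS (median 0.20), and 0 of 6 compared were higher and 1 lower untreated. Il6, the main inducer of the acute phase response in liver, had a signal of 28745 in knockout cells with LPS against 7238 in wild-type cells with LPS, a difference of 2.08, and was below background without LPS. Il1b, another inducing cytokine, had 63126 against 73763 on the same arrays (-0.14). Il1a had 10104 against 10431 (0.04), and Lif 429 against 191 (1.26).

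**Figure D5:**
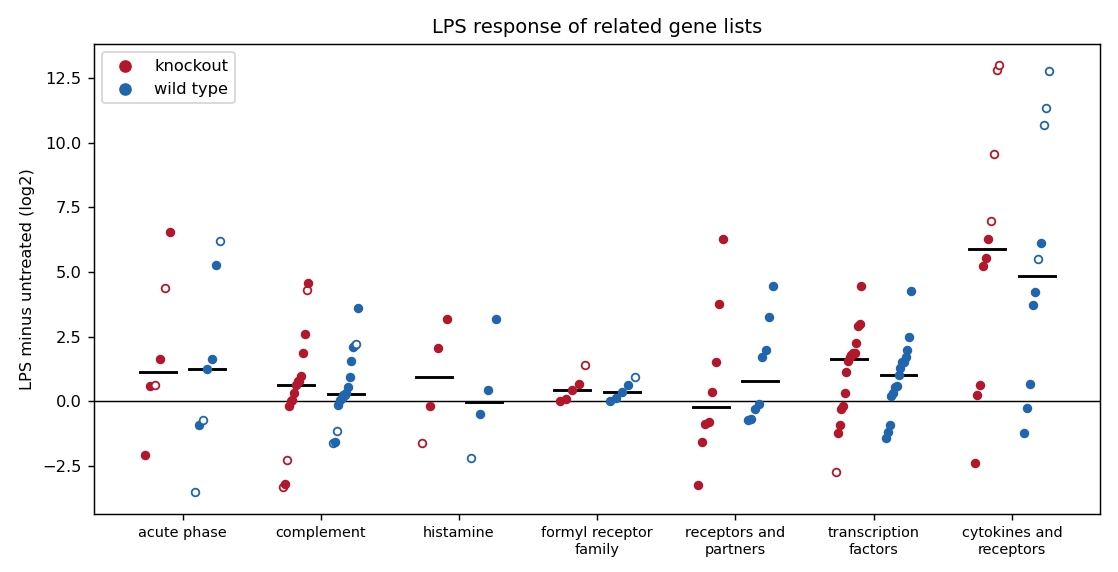
LPS minus untreated (log2) for the compared genes of 7 related lists, knockout left of wild type in each pair; open points had 1 array above background and bars are medians. The cytokines and receptors have the highest medians (5.89 in knockout, 4.86 in wild type), and those of the formyl receptor family list are 0.44 and 0.37.

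The likeness of other genes was measured as the distance between their 4 array values and those of a member, each after subtracting its own mean. Ptgs2, the inducible cyclooxygenase, was nearest to both Lcn2 (0.91 log2 units) and Saa3 (0.82), followed by Nos2, the inducible nitric oxide synthase (2.23 and 0.96). Next came Cxcl2 for Lcn2 (2.44) and Acod1 for Saa3 (1.61). Nearest to Cfb were Zbp1 (0.80), Ccl5 (0.85) and Gbp3 (0.85), all of them known interferon-responsive genes. They were 1.29, 1.54 and 0.98 higher in untreated knockout than in untreated wild-type cells. Since they were chosen for likeness to Cfb over these same arrays, the sign of this difference follows from the choice. A part of interferon was not tested. Hdc lay nearest to Nos2 (0.99), Ccl5 (1.32) and Ptgs2 (1.76). Nearest to C3 were Zswim4 (0.04), P2ry10b (0.07) and Trim46 (0.08). Among the members, Saa3 and Hdc were 1.503 apart, Lcn2 and Saa3 1.53, and Lcn2 and C3 7.69. With 4 arrays these distances are a description.

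Chromosomal neighbours were the 2 nearest protein-coding genes on each side of a member in the GRCm38.p6 gene order, chosen by position. Beside the formyl receptor genes, Has1, a hyaluronan synthase gene, had a signal of 269 with LPS and 4.997 untreated in knockout cells, and of 375 with LPS and 5.31 untreated in wild-type cells. It was at least 16.2-fold higher with LPS in knockout cells and at least 18.6-fold higher in wild-type cells. Tph1, a serotonin synthesis gene near Saa3, was above background only in untreated knockout cells, at a signal of 98.3, at least 4.25-fold above untreated wild type. C2, the classical pathway relative of factor B next to Cfb, had a signal of 25.2 in knockout cells with LPS and of 29.1 in wild-type cells with LPS, and no call. Nelfe, on the other side of Cfb, differed with LPS by -0.32 in knockout cells and by -0.35 in wild-type cells, whereas Zbtb12 was lower with LPS (-2.09 in knockout cells, -1.56 in wild-type cells). Slc27a2 and Gabpb1 beside Hdc and Txnl4b and Dhodh beside Hp had no 2-fold difference in any comparison, and Saa4 and Slc27a2 were below background on all 4 arrays.

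RefSeq promoter sequences (GRCm38.p6) were at hand for 7 members: Lcn2, Saa3, C3, Hdc, Ptx3, Fpr1 and Fpr2. In the 250 bases before the annotated start, both strands were searched for the C/EBP motif TTGCNNAA, the AP-1 motif TGANTCA, the STAT motif TTCNNNGAA and the kappa B motif bound by NF-kB. A C/EBP match was present in 4 of the 7 (Lcn2, Saa3, C3 and Ptx3), and in 9.56% of all 32851 windows of that length. A STAT match was present in Fpr2 (7.02% of all windows), and the kappa B motif (3.90% of all windows) and the AP-1 motif (6.75%) in none of the 7. A match is a description of letters and no evidence of binding, and its absence speaks only of this window. Ptx3 holds a match and stayed below background. The 4 windows with a C/EBP match are printed in the direction of the gene, with the match in capitals: Lcn2 at chr2:32387740-32387989 (minus strand; match 209 to 216 bases before the start), Saa3 at chr7:46715677-46715926 (minus strand; 92 to 99 bases, read on the opposite strand), C3 at chr17:57228137-57228386 (minus strand; 38 to 45 bases) and Ptx3 at chr3:66219637-66219886 (plus strand; 50 to 57 bases, opposite strand).
Lcn2 promoter: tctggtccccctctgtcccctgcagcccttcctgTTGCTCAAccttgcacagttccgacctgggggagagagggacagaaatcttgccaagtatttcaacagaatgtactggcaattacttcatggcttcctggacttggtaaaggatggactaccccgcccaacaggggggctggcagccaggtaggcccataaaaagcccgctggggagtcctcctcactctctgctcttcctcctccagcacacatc
Saa3 promoter: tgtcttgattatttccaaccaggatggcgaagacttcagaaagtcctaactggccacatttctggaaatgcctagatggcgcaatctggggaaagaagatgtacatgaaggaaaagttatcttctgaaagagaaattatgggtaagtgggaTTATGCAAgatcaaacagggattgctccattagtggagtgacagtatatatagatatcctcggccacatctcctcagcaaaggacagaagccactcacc
C3 promoter: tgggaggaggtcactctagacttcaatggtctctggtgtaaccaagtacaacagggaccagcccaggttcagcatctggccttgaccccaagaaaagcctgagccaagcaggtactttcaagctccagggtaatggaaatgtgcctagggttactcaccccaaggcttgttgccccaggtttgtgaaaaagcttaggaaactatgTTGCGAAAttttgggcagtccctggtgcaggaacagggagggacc
Ptx3 promoter: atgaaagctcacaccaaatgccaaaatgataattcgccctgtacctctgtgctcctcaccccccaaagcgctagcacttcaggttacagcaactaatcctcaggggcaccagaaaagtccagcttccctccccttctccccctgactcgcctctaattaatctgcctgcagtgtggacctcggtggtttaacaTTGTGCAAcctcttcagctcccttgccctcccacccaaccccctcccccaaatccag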

How the data were processed

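Total RNA of 4 samples, labelled with Cy3 per the labels, was measured on 4 one-colour Agilent arrays of 1 slide. The deposited scanner files hold intensity on a linear scale, with background subtraction, spatial detrending and surrogates for low spots inside each array, per the file headers; these name Feature Extraction version 10.7.1.1, and the submitters' processing notes 9.5.1.1. The deposited flags are values of the unit other, 0 or 1 for each spot. The deposited series table holds intensity; on each array at least 93.1% of its 56605 probes differed by under 0.01 on the log2 scale from quantile-normalized scanner values, and it served as an alternative.

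Control and outlier spots were left out, spots of a probe averaged as log2, and each array's 75th percentile over probes (303 to 370 in signal) subtracted. Of the probes, 58.3% were named by RefSeq accession. Of several probes for a gene, 1 above background on all 4 arrays was preferred, then 1 above on any, then the brightest. Named list genes are up to 4 per list with the largest LPS difference and up to 2 with the largest genotype difference; others of a list were named after their values were seen. Some genes that this rule names are not reported here. Likeness names the 3 nearest genes. The members and lists were chosen with earlier results of these data known. Calling was tested on simulated data. Alternatives were normexp (offset 50), quantile normalization, median centring, centring on 7 spike-in probes, a stricter filter on dim probes or none, averaging all probes of a gene, and the series table. Python 3.11.15, numpy 2.4.6, pandas 2.3.3, matplotlib 3.10.9, R 4.3.3 and limma 3.58.1 were used.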

Additional observations from a re-analysis of the deposited data

Results flagged for a closer look

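For 2 members the sign of the genotype difference turned between conditions, with 1 array per group and no test of the difference. Saa3 was 1.23 higher in knockout than in wild-type cells with LPS and -0.05 untreated, so its LPS responses differed by 1.29. C3 was 0.45 higher with LPS and -0.18 untreated, so its LPS responses differed by 0.62. Both untreated differences were smaller than 1 SD of the scanner's error model.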

How the results depend on the processing

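No paired analysis was possible because each group has 1 array. The increases with LPS of Lcn2, Saa3, Cfb, C3, Hdc, Fpr1 and Fpr2 passed 2-fold in both genotypes under every alternative, except that the stricter filter does not compare Fpr1 in either genotype, nor Fpr2 in wild type; the decrease of Hp was lost with normexp and is not compared by the stricter filter. Normexp moved LPS responses of Lcn2, Cfb, Hdc, Hp, Fpr1 and Fpr2, and the mean of probes that of Hdc in wild type, by over 1.5 times as folds, to the values given beside them. With that filter 5 members were called for the LPS response of wild type, by its construction. With normexp 2 members were called for the difference of the LPS responses, Lcn2 and Saa3. With the mean of all probes of a gene 1 member, Cfb, was called between untreated genotypes, and the difference of the LPS responses of Hdc was 0.35 in place of -1.19; 2 of its 3 probes were below background untreated. Over all genes, normexp gave 2758 calls for the LPS response of knockout, 2072 for that of wild type, 435 between genotypes with LPS, 524 untreated and 375 for the difference of the responses. No filter gave 7438, 6249, 3594, 4107 and 5787, with more genes tested, and the stricter filter 665 between genotypes with LPS and 668 untreated. Spike-in centring moved the median of all genes in the LPS responses to -0.24 in knockout and -0.20 in wild type, and the share of calls that were higher to 31.6% and 37.3%, against 46.9% and 53.1%; median centring gave a median of 0.14 and 57.1% higher in knockout. Other causes were not tested. Values near background, such as the untreated signals of Lcn2, Cfb and Fpr2, are limited by signal over background.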
